A study of Homo sapiens with 2 samples.

Results

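The genes described here are CARM1, 6 other protein arginine methyltransferases (PRMT1, PRMT2, PRMT3, PRMT5, PRMT6 and PRMT7) and the PRMT5 cofactors WDR77 and CLNS1A, 9 of the 54261 gene symbols in the deposited count table. CARM1 was selected on the splicing of its exon 15 in these same 2 libraries, and the other 8 genes were chosen by family or by their work with PRMT5. All 9 were chosen with earlier results of these data known, and their values are therefore a description. RKO, a human colorectal carcinoma cell line, was transfected either with the negative control si-NC or with si-SRSF2, an siRNA against the splicing factor SRSF2, and mRNA was sequenced to see what loss of SRSF2 changes. Each group had 1 library, and no difference given here has a replicate check. The si-NC library held 19931360 counts and the si-SRSF2 library 14512802. Both libraries came from the same line after transient transfection, and a single siRNA sequence stood for the loss of SRSF2.

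Protein arginine methyltransferases move methyl groups from S-adenosylmethionine to the guanidino nitrogens of arginine. CARM1, PRMT1, PRMT2, PRMT3 and PRMT6 make asymmetric dimethylarginine, PRMT5 makes the symmetric form and PRMT7 stops at monomethylarginine. Many of their substrates are RNA-binding and spliceosomal proteins, and PRMT1 and PRMT5 are often raised in colorectal tumours.

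Levels are in CPM, counts set to a common library size, and differences are log2 ratios of si-SRSF2 over si-NC. All intervals are at 95% and cover counting error only. A count of 0 allowed up to 3 counts by an upper limit alone, which were worth 0.151 CPM with si-NC and 0.207 CPM with si-SRSF2. The Poisson intervals, which have a limit on each side, reach 0.185 and 0.254 CPM at a count of 0. All 9 genes passed the filter of a mean of 1 CPM, which 12620 genes passed. The targeted gene was examined first, since it checks the labels. SRSF2 had 1964 counts with si-NC and 713 with si-SRSF2, or 98.5 and 49.1 CPM. Its log2 ratio was -0.997 (interval -1.13 to -0.88), and 49.9% of the control level was left, so the library labelled si-SRSF2 was the one with less SRSF2. MFSD11, which overlaps SRSF2 on the opposite strand, had 225 and 119 counts, or 11.3 and 8.20 CPM. The log2 ratio of MFSD11 was -0.44 (-0.79 to -0.13).

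The siRNA is shown because it sets the groups apart. Capitals mark its overhang.
si-SRSF2: uccaaauccaggucgcgauTT
Its 19 bases were found in the canonical transcript of SRSF2 and in that of none of the 9 genes. The site for bases 2 to 8 of its guide strand, GTCGCGA, was also in none of the 9, against 2.23% of the 11225 genes tested that had a canonical transcript. If the control siRNA is listed in the same orientation, its site for these bases, TGTCACG, occurred 1 time in CARM1 and in none of the other 8 genes, against 6.68% of the genes tested. All ratios are over the library with that siRNA, and its part in the value of CARM1 was not tested. The search covered the sense strand only, and a missing match says only that these letters are not there.

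CARM1, the coactivator-associated methyltransferase of histone H3 and of splicing proteins, is encoded on the plus strand of chromosome 19, between 10871553 and 10923075 of GRCh38. It had 2005 counts with si-NC and 1538 with si-SRSF2. These were 101 CPM (interval 96.2 to 105) with si-NC and 106 CPM (101 to 111) with si-SRSF2. The intervals of the libraries overlapped, and the log2 ratio was 0.07 (-0.02 to 0.17). The total of CARM1 was thus nearly level between the libraries, and a difference was not detectable at this depth. With upper-quartile factors the interval was 0.003 to 0.20 and lay above 0. YIPF2, which shares 891 bp of exon with CARM1 on the opposite strand, had 481 and 375 counts, and reads from the shared stretch may belong to either gene. In bulk RNA, fewer cells with a transcript and less of it per cell cannot be told apart.

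The exon on which CARM1 was selected is exon 15 of the 16 exons of CARM1-201, at chr19:10921375-10921443 on the plus strand. It is 69 bp long, a multiple of 3, and lies wholly within the coding sequence. CARM1-202 has 15 exons and skips it, and both transcripts end at the same stop codon, from 10921755 to 10921757. The coding sequence is 1824 bp with the exon and 1755 bp without it, or 608 and 585 codons. The exon is printed because CARM1-201 holds it and CARM1-202 does not. Capitals mark matches to CCNG or GGNG, the letters that SRSF2 is known to bind, and in the splice sites they mark exon bases.
exon 15 of CARM1: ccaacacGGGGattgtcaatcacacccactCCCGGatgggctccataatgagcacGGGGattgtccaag
3' splice site before exon 15: tcctccctctcgctgcgcagCCA
5' splice site after exon 15: AAGgtaacg
Exon 15 of CARM1 held 4 such matches on the sense strand, of which a pair overlapped, and 56.5% of its bases were G or C. Of 54 other internal coding exons of this length on chromosome 19, 53 (98.1%) held at least 1 match, and their median was 4.0. The count in CARM1 was therefore an ordinary one for this length. The intron before the exon is 247 bp long and the intron after it 171 bp. Reads across these junctions of CARM1 were not used here. CARM1 has 11 annotated transcripts, and the counts sum those with and without the exon and say nothing of their balance.

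Genes with the ratio nearest to that of CARM1 were DNMT3A, a DNA methyltransferase, KMT5B, a lysine methyltransferase, and FERMT1, an integrin adaptor. Likeness was the distance between log2 ratios over 2 libraries, among genes averaging at least 5 CPM. DNMT3A had 392 and 301 counts, KMT5B 838 and 643, and FERMT1 958 and 735. The distance to CARM1 was under 0.05 for 1599 genes, 15.2% of those at this level, so nearness to CARM1 was common.

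Of the other enzymes, PRMT6 differed most. PRMT6, which methylates histone H3 and whose canonical transcript is a single exon on chromosome 1, had 156 counts with si-NC and 246 with si-SRSF2. These were 7.83 CPM (6.65 to 9.16) and 16.9 CPM (14.9 to 19.2), with no overlap between the libraries. Its log2 ratio was 1.07 (0.82 to 1.41), a 2.17-fold higher level without the pseudocount, and 0.65% of genes tested had a higher ratio. PRMT6 was the least abundant member with si-NC, and its 156 counts made its interval the widest among the members. With a pseudocount of 2 CPM its log2 ratio was 0.95, below 2-fold. No annotated exon of another gene overlapped PRMT6.

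PRMT2, an enzyme known as a coactivator of nuclear receptors, was next. It had 851 counts with si-NC and 958 with si-SRSF2, or 42.7 CPM (39.9 to 45.7) and 66.0 CPM (61.9 to 70.3). The log2 ratio of PRMT2 was 0.62 (0.49 to 0.76), and 3.8% of genes tested had a higher one. PRMT2 and PRMT6 were the only members at least 25% higher, and their direction was the same under every scaling tried.

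PRMT1, which makes most of the asymmetric dimethylarginine in cells, had 3779 and 2999 counts. These were 189.6 CPM (184 to 196) with si-NC and 207 CPM (199 to 214) with si-SRSF2. The log2 ratio was 0.12 (0.05 to 0.19). The difference in PRMT1 was thus larger than counting error but small, a level 8.97% higher with si-SRSF2.

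PRMT3 and PRMT7 had lower values in the si-SRSF2 library. PRMT3, which methylates a protein of the small ribosomal subunit, had 355 counts with si-NC and 215 with si-SRSF2, or 17.8 CPM (16.0 to 19.8) and 14.8 CPM (12.9 to 16.9). Its log2 ratio was -0.26 (-0.52 to -0.02), and with upper-quartile factors it was -0.23, with an interval that reached 0.007 and so included 0. PRMT7 had 568 and 379 counts, or 28.5 CPM (26.2 to 30.9) and 26.1 CPM (23.55 to 28.9). The log2 ratio of PRMT7 was -0.12 (-0.32 to 0.06). SMPD3, which overlaps PRMT7 on the opposite strand, had 0 counts in both libraries. A difference in PRMT7 was not detectable at this depth, and that of PRMT3 was near the limit of counting error under every scaling tried.

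**Figure D1:**
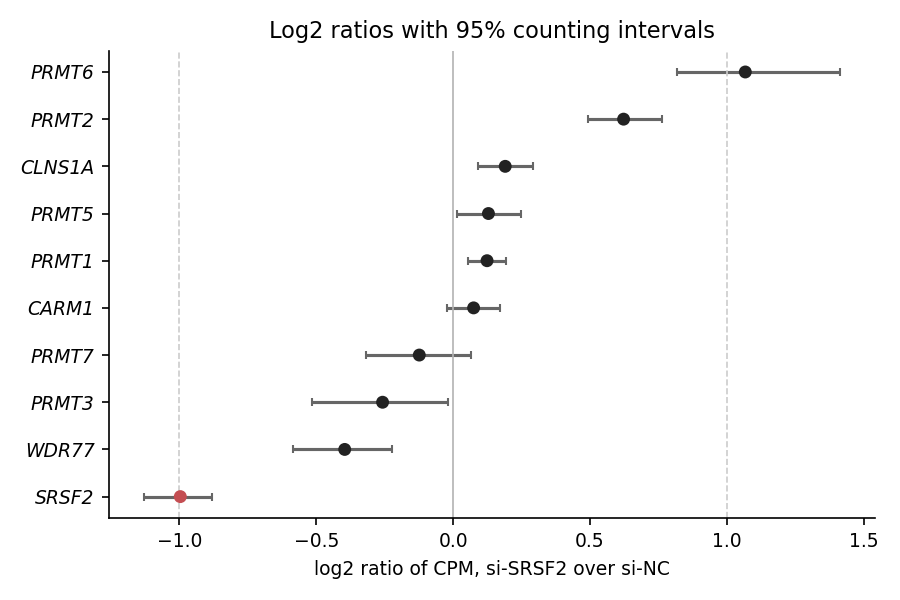
Log2 ratio of CPM with si-SRSF2 over si-NC on the horizontal axis for SRSF2 (red) and the 9 members (black), with 95% counting intervals as bars, a solid line at 0 and dashed lines at 2-fold. PRMT6 at 1.07 and PRMT2 at 0.62 stand to the right, WDR77 at -0.40 lies lowest of the members, and the intervals of CARM1 and PRMT7 include 0.

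PRMT5 and its cofactors did not share a direction. PRMT5, the main source of symmetric dimethylarginine, had 1358 counts with si-NC and 1082 with si-SRSF2. These were 68.1 CPM (64.6 to 71.9) and 74.5 CPM (70.2 to 79.1), and the log2 ratio was 0.13 (0.01 to 0.25). The intervals of PRMT5 in the libraries overlapped, and the lower bound of its ratio was close to 0. PRMT5-AS1, antisense to PRMT5, had 1 and 0 counts.

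WDR77, the WD-repeat partner that PRMT5 needs for full activity, was the lowest of the 9 genes by ratio. It had 708 counts with si-NC and 390 with si-SRSF2, or 35.5 CPM (33.0 to 38.2) and 26.9 CPM (24.3 to 29.7). The log2 ratio of WDR77 was -0.40 (-0.58 to -0.22), a level at 75.6% of the control, and 8.99% of genes tested had a lower ratio. WDR77 was the only member at least 20% lower, and it was lower under every scaling tried. Its neighbour ATP5F1 overlaps it by 90 bp on the opposite strand and had 2629 and 2407 counts, with a log2 ratio of 0.33. An unnamed long noncoding RNA overlaps WDR77 by 673 bp on the same strand and was not analysed here, nor was another that overlaps PRMT1.

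CLNS1A, the chaperone that brings Sm proteins to PRMT5, had 1803 counts with si-NC and 1499 with si-SRSF2. These were 90.5 CPM (86.3 to 94.7) and 103 CPM (98.1 to 109), and the intervals did not overlap. Its log2 ratio was 0.19 (0.09 to 0.29). CLNS1A and PRMT5 were thus slightly higher and WDR77 lower with si-SRSF2. The interval of WDR77 lay apart from those of PRMT5 and CLNS1A.

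Levels of different genes were compared per kb of canonical transcript. In si-NC, PRMT1 was the most abundant of the 9 at 143 CPM per kb (138 to 147), and PRMT6 the least at 2.99 CPM per kb (2.54 to 3.49). CARM1 at 30.5, CLNS1A at 30.3 and PRMT5 at 29.6 CPM per kb followed PRMT1, with overlapping intervals. PRMT2 at 18.1 and WDR77 at 14.46 CPM per kb came next, then PRMT7 at 7.62 and PRMT3 at 6.98, whose intervals overlapped. PRMT1 thus stood apart from the other members, and CARM1, CLNS1A and PRMT5 could not be put in order.

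In si-SRSF2 the order of CARM1, CLNS1A and PRMT5 changed within overlapping intervals, at 32.2, 34.6 and 32.4 CPM per kb. PRMT2 was at 28.0 CPM per kb (26.3 to 29.9), below the interval of CARM1 (30.6 to 33.8). PRMT6 at 6.47 CPM per kb had left the lowest place and overlapped PRMT7 at 6.99 and PRMT3 at 5.80. PRMT1 made up 59.8% of the summed level per kb of the 7 enzymes with si-NC and 58.2% with si-SRSF2, and CARM1 12.8% and 12.0%. The share of PRMT2 was 7.60% and 10.5%, and that of PRMT6 1.251% and 2.42%. The level of PRMT5 over that of WDR77 was 2.04 with si-NC and 2.96 with si-SRSF2. These values depended on the length used. With the length of all annotated exons joined, PRMT1 was first and CARM1 second in both libraries, WDR77 stood above PRMT2, and PRMT3 above PRMT7. With si-SRSF2, PRMT6 stood above both of the last by that length, at 3.90 CPM per kb against 2.70 for PRMT3 and 1.88 for PRMT7. The share of PRMT1 was then 41.3% with si-NC and 40.3% with si-SRSF2, and that of CARM1 23.8% and 22.4%. PRMT2 had 5.86% and 8.115% and PRMT6 1.88% and 3.65% by that length. PRMT5 over WDR77 was 1.57 and 2.27.

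**Figure D2:**
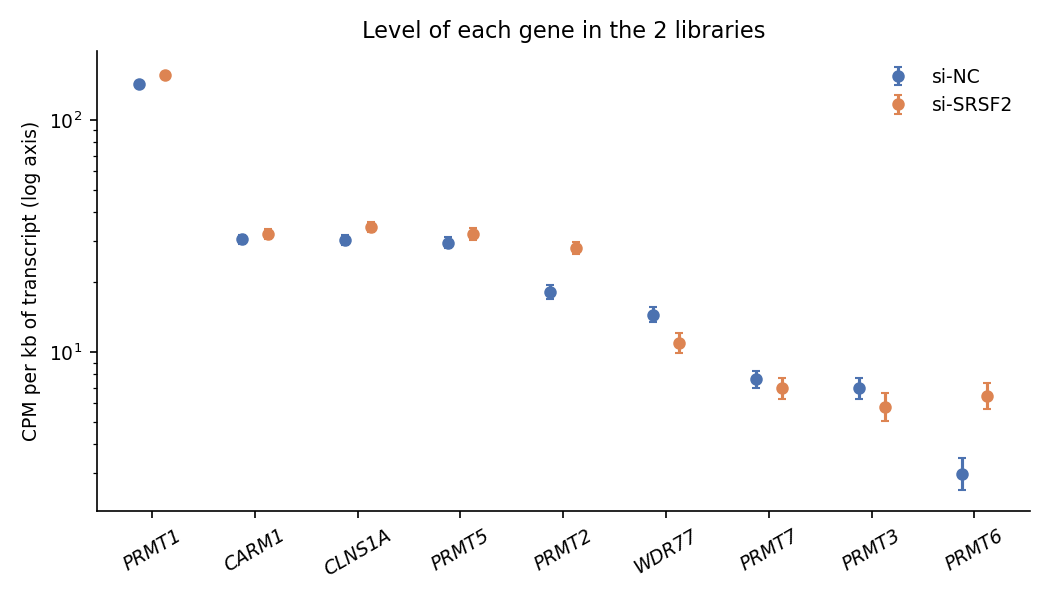
Level of each of the 9 members in CPM per kb of canonical transcript, on a log axis, with si-NC (blue) and si-SRSF2 (orange), with 95% Poisson intervals as bars. PRMT1 is highest in both libraries, at 143 and 156 CPM per kb, and PRMT6 goes from 2.99 to 6.47 CPM per kb.

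The members were then read beside all 12620 genes tested. Of the 9 members, 2 (22.2%) were at least 25% higher, against 11.8% of all genes. At least 20% lower was 1 (11.1%), against 13.3%. PRMT6 alone was at least 2-fold higher, against 0.848% of all genes, and 0 members were at least 2-fold lower, against 0.499%. The counting interval lay above 0 for 5 members (CLNS1A, PRMT1, PRMT2, PRMT5 and PRMT6), against 21.0% of all genes, and below 0 for 2 (PRMT3 and WDR77), against 26.7%. This last rule depends on depth, since 26.5% of genes averaging at least 50 CPM had an interval above 0 and 36.0% below. The median log2 ratio was 0.12 over the 9 members and -0.02 over all genes tested. The members went both ways, with 6 higher and 3 lower under every scaling tried, and nothing particular to the family is read from these counts.

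**Figure D3:**
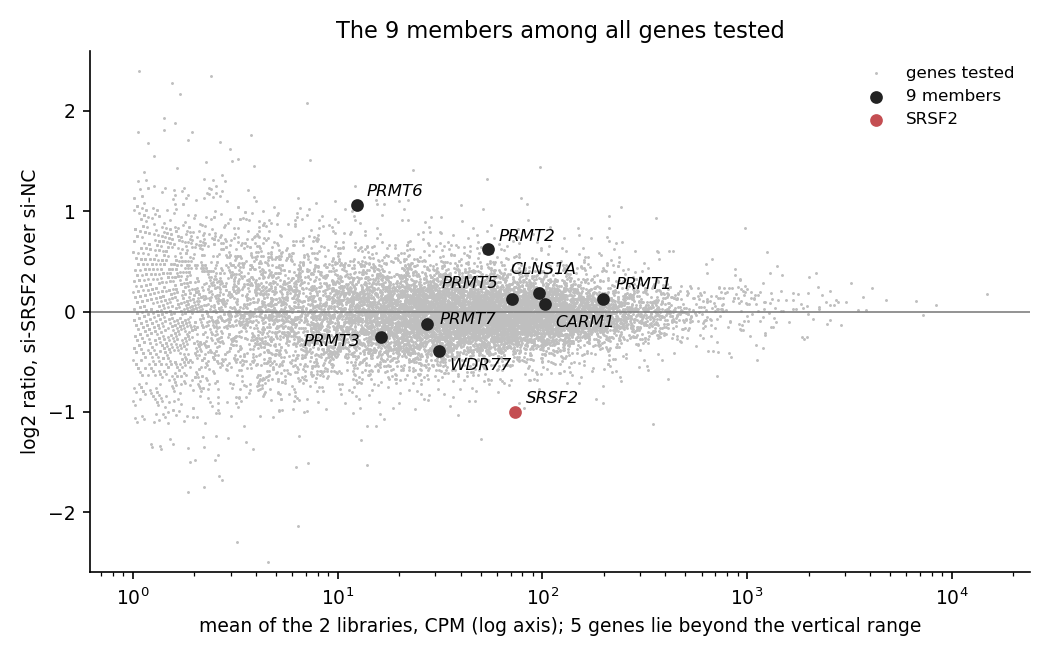
Mean CPM of the 2 libraries on a log axis against the log2 ratio of si-SRSF2 over si-NC for 12620 genes (grey), with the 9 members in black and SRSF2 in red. PRMT6 lies at the upper edge of genes of its level, and CARM1 lies within the dense band around 0. Beyond the vertical range of 2.6 on the log2 scale lie 5 genes.

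The other genes of the family and of the PRMT5 complexes were examined next. PRMT9 had 332 and 266 counts and a log2 ratio of 0.13 (-0.10 to 0.37), and NDUFAF7, a mitochondrial arginine methyltransferase, had 541 and 445 and 0.17 (-0.01 to 0.36). PRMT8, a brain enzyme, had 34 and 14 counts, and its log2 ratio of -0.59 had an interval of -1.83 to 0.11, too wide to tell a large difference from none. None of these family genes had an interval clear of 0. RIOK1 and COPRS, adaptors that give PRMT5 other substrates than CLNS1A does, had log2 ratios of 0.00 and -0.12, also with intervals that include 0.

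Partners of PRMT1 and the supply of methyl groups followed. BTG2, an antiproliferative protein that binds PRMT1 and a known p53 target, had 514 counts with si-NC and 790 with si-SRSF2, a log2 ratio of 1.06 (0.92 to 1.24). BTG1, its close relative, had 2142 and 1483 counts and a log2 ratio of -0.07 (-0.17 to 0.02). The intervals of these PRMT1 partners lay apart. MAT2A, which makes the S-adenosylmethionine that all these enzymes use, had 1550 and 1734 counts. These were 77.8 CPM with si-NC and 119 CPM with si-SRSF2, with a log2 ratio of 0.62 (0.52 to 0.72). MAT2A stood apart from the other genes of the methyl donor cycle. MAT2B, the regulatory subunit of MAT2A, had a log2 ratio of 0.05 and AHCY, which clears the product of methylation, 0.08 (0.02 to 0.14). ADK was at 0.15 (0.01 to 0.29), MTR at 0.06 and MTAP at 0.00. The interval thus lay above 0 for 3 of these 6 genes (50%), MAT2A, AHCY and ADK, and below 0 for 0. These shares stand against 21.0% and 26.7% of all genes and depend on depth. MTAP, which clears an inhibitor of PRMT5 and is lost in many tumours, was present at 480.4 CPM with si-NC and 479.9 CPM with si-SRSF2.

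Of all 62 other genes listed, 57 passed the filter. Among these 57, 5 (8.77%) were at least 25% higher and 7 (12.3%) at least 20% lower, beside 11.8% and 13.3% of all genes. PRMT8 and FBL, both among those lower, were at 0.965 and 0.689 CPM with si-SRSF2 and passed the filter only through si-NC. The median log2 ratio of the 57 was 0.04. The counting interval lay above 0 for 19 of them (33.3%) and below 0 for 14 (24.6%). These shares stand against 21.0% and 26.7% of all genes and depend on depth. BTG2 was the only one at least 2-fold higher and TAF15 the only one at least 2-fold lower. TAF15, a substrate of PRMT1, had 106 and 27 counts, and FBL, another, 31 and 10. Both are genes that most cells use strongly, and such low counts in both libraries make their ratios uncertain.

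The CARM1 lists went both ways. Of all 12620 genes tested, 5830 were higher and 6790 lower. This balance depends on the scaling, since the median log2 ratio of all genes was -0.02 here and -0.0014 with upper-quartile factors. Of 6 coactivator partners of CARM1, 3 were higher and 3 lower, from KAT2B at -0.32 to CREBBP at 0.25 on the log2 scale. The interval of these 6 lay above 0 for 3 (50%) and below 0 for 2 (33.3%), against 21.0% and 26.7% of all genes. Of 7 CARM1 substrates, 6 were higher, from ELAVL1, an RNA-stabilising protein at -0.24, to MED12, a Mediator subunit at 0.34. MED12 was the only CARM1 substrate at least 25% higher, and none was at least 20% lower. The interval of these 7 lay above 0 for 4 (57.1%) and below 0 for 1 (14.3%), against 21.0% and 26.7% of all genes, a share that depends on depth.

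By the sign of their ratios, the substrates of PRMT5 and PRMT1 and the proteins that read their marks also went both ways. Of 5 PRMT5 substrates, 3 were higher, from SNRPD1 at -0.32 to SNRPD3 at 0.21 on the log2 scale. SNRPD1 and SNRPD3 are both Sm proteins of the spliceosome. The interval lay above 0 for 2 of these 5 (40%) and below 0 for 1 (20%), against 21.0% and 26.7% of all genes. Of 14 PRMT1 substrates, 6 were higher and 8 lower, from TAF15 at -1.30 to KHDRBS1 at 0.41. At least 20% lower were 4 of these 14 (28.6%), against 13.3% of all genes, and 7 (50%) had an interval below 0, against 26.7%. The interval lay above 0 for 3 (21.4%), against 21.0%. Of genes averaging at least 50 CPM, 36.0% had an interval below 0. FBL, in both lower counts, passed the filter only through si-NC, at 1.555 CPM against 0.689 CPM with si-SRSF2. Of 4 methylarginine readers that passed the filter, 3 were higher, from TDRD3 at -0.08 to SMN1 at 0.25. SMN1 is uncertain, since it shares nearly all its sequence with SMN2, which had 3 counts in each library. Of 8 SMN complex genes, 5 were higher, from GEMIN2 at -0.40 to GEMIN8 at 0.47. However, the interval lay above 0 for GEMIN8 alone (12.5%) and below 0 for GEMIN2, GEMIN4 and GEMIN7 (37.5%), against 21.0% and 26.7% of all genes. By sign, none of these 4 lists moved in 1 direction. Among the 4 readers the interval lay above 0 for 2 (50%), SND1 and the uncertain SMN1, and below 0 for 0. These shares stand against 21.0% and 26.7% of all genes and depend on depth. The interval of TDRD3 (-0.33 to 0.16) included 0. The peptidylarginine deiminases PADI1, PADI2, PADI3 and PADI4, which turn arginine to citrulline, had 0 counts in both libraries.

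**Figure D4:**
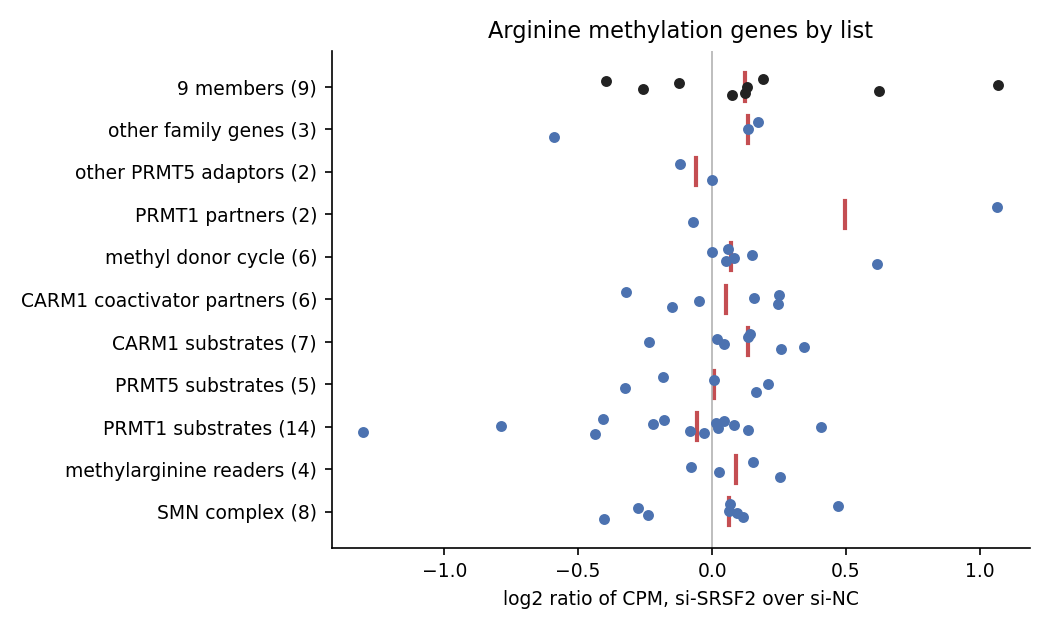
Log2 ratio of si-SRSF2 over si-NC for each gene that passed the filter, with the 9 members in black, the other lists in blue, the number of genes in brackets and red bars at the medians. BTG2 at 1.06 and MAT2A at 0.62 stand to the right of their lists and TAF15 at -1.30 to the left of the PRMT1 substrates.

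The cell type was checked against its markers. Of 10 markers of colon epithelium and carcinoma, 5 had more than 3 counts in both libraries. All 10 summed to 79.4 CPM with si-NC and 97.0 CPM with si-SRSF2. Of this sum KRT8 was 27.4 and 42.6 CPM, a log2 ratio of 0.62 (0.47 to 0.80), whereas the intervals of KRT18, CDX2 and EPCAM included 0. By the mean CPM of both libraries KRT8 was the highest, with 547 and 618 counts, whereas KRT18, with 632 and 477, led with si-NC. This order depended on length. Per kb of canonical transcript KRT18 was at 22.4 and 23.3 CPM and KRT8 at 15.4 and 23.9, and with all exons joined KRT18 led in both libraries. CDX2 had 212 and 158 and EPCAM 179 and 147, whereas KRT20, CDX1 and LGALS4 were at 0. Among the low ones CDH1 had 10 and 6 counts, and KRT19 and VIL1 had 1 in each library. Of leukocyte markers, PTPRC had 2 and 0 counts, CD14 had 0 and 1, and CD3E and LYZ were at 0. Summed markers of fibroblasts (5 genes) were at 1.55 and 1.79 CPM, with COL1A1 the most abundant and DCN at 0, and those of endothelium (4 genes) at 0.903 and 0.689 CPM, with KDR the most abundant and PECAM1 at 0. Markers of other cell types were thus at or near 0 beside members at 7.83 CPM or more.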

How the data were processed

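RNA of 1 si-NC and 1 si-SRSF2 transfection of RKO cells was made into stranded mRNA libraries and read as 150 bp pairs. After trimming of adaptors and poor reads, the authors aligned with HISAT2 2.0.4 to GRCh38 per the submitters' processing notes, and counted reads per gene with HTSeq. The deposited table holds raw counts, 1 row a gene symbol. The strand mode of counting is not given in the sources used here, so reads of overlapping genes on opposite strands cannot be told apart. Libraries were matched to groups by their labels.

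Library sizes were scaled by TMM in edgeR 4.0.16 (R 4.3.3). Log2 ratios had a pseudocount of 0.5 CPM and were counted for genes averaging at least 1 CPM. Counts of genes past a fold threshold use these ratios, while the fold or percentage of a single gene is a ratio of CPM without a pseudocount. Their intervals are 95% Clopper-Pearson intervals without a pseudocount, and those of levels are exact Poisson intervals (SciPy 1.17.1). No p-value was computed, for want of replicates. The calculations were tested on simulated data that held counting error only. That test checks the arithmetic and says nothing of the spread between transfections. Transcripts, exons and lengths came from GENCODE release 44 on GRCh38, and exon 15 was read from that genome. The methods name Ensembl 100 while many symbols in the table have the NCBI form, so the gene models counted may differ from GENCODE, and every level per kb, order and share rests on lengths that may not be those counted. The siRNA sequence came from the study's oligonucleotide list.

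Genes named were SRSF2, the 9 members, every gene of the small lists (other family genes, other PRMT5 adaptors, PRMT1 partners, methyl donor cycle), the highest and lowest ratio of each other list (CARM1 coactivator partners, CARM1 substrates, PRMT5 substrates, PRMT1 substrates, methylarginine readers, SMN complex, peptidylarginine deiminases), listed genes at least 2-fold changed and the 3 genes nearest to CARM1. FBL, SMN2, SND1, GEMIN4, GEMIN7, the single-exon genes past 2-fold and the cell type markers printed were named after their values were seen. Genes overlapping members or SRSF2 were named for their position. Members and lists were chosen with earlier results of these data known. Alternatives were scaling by DESeq2 1.42.0, by upper quartiles or by totals, a pseudocount of 0.1 or 2 CPM, no filter on low counts or 1 at 5 CPM, scaling without mitochondrial genes and the 20 most abundant genes, and another gene length.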

Additional observations from a re-analysis of the deposited data

How the results depend on the processing

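No paired analysis was possible because neither group had more than 1 library, and leaving out a replicate was not possible. The log2 ratios of SRSF2 and of the 9 members kept their direction and lay within their main counting intervals under all 6 alternatives run for them. CARM1 ranged from 0.07 to 0.10, PRMT6 from 0.95 to 1.10, PRMT2 from 0.61 to 0.65 and WDR77 from -0.40 to -0.37. With upper-quartile factors the members with an interval below 0 numbered 1 in place of 2, without PRMT3, and those above 0 gained CARM1. With a pseudocount of 2 CPM, 0 members were at least 2-fold higher in place of 1, since a pseudocount acts on low counts by construction.

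Of the other pathway genes, 1 was at least 2-fold lower, against 2 with a pseudocount of 0.1 CPM, 0 with 2 CPM and 0 with the 5 CPM filter. With this filter on the mean, 4 were at least 20% lower in place of 7, since fewer genes were counted. All genes at least 2-fold higher and lower numbered 107 and 63, against 185 and 120 with 0.1 CPM, 28 and 17 with 2 CPM, 239 and 109 with no filter, and 26 and 16 with the 5 CPM filter. At least 25% higher and at least 20% lower were 1495 and 1676, against 3577 and 2931 with no filter, and 867 and 1187 with the 5 CPM filter. Upper-quartile factors turned this balance round, to 1627 and 1484, and genes with an interval above and below 0 numbered 3020 and 2991, against 2646 and 3366.

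With the length of all annotated exons joined, levels per kb were lower by construction. In si-NC they were 22.8 for CARM1, 39.5 for PRMT1, 5.62 for PRMT2, 3.25 for PRMT3, 20.8 for PRMT5, 1.80 for PRMT6, 2.05 for PRMT7, 13.2 for WDR77 and 19.7 for CLNS1A. In si-SRSF2 they were 24.0 for CARM1, 43.1 for PRMT1, 8.68 for PRMT2, 2.70 for PRMT3, 22.8 for PRMT5, 3.90 for PRMT6, 1.88 for PRMT7, 10.0 for WDR77 and 22.5 for CLNS1A. PRMT1 over CARM1 was 1.74 with si-NC by this length, against 4.68 by canonical transcripts. Few counts limit PRMT6 among the members, and PRMT8, TAF15 and FBL among the other genes.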

Other observations

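The canonical transcript of PRMT6 is a single exon, and genes of this kind were looked at as a class after its value was seen. Of 149 single-exon coding genes tested, 6 (4.03%) were at least 2-fold higher in si-SRSF2 and 0 at least 2-fold lower. Of 10277 coding genes with more exons, 43 (0.418%) were at least 2-fold higher and 44 (0.428%) lower. The 6 include PRMT6, which prompted the look. At least 25% higher were 16.8% of single-exon genes and at least 20% lower 18.1%, against 8.67% and 12.7% of the others. The median log2 ratio was 0.00 for single-exon genes and -0.04 for the others, and 73 of 149 were higher, against 4529 of 10277. The counting interval lay above 0 for 24.2% of single-exon genes and below 0 for 20.8%, against 20.3% and 29.3%. The lowest log2 ratio was -0.90 for single-exon genes and -4.56 for the others, and the highest was 1.11 and 2.40. Extremes of classes so unlike in size are not comparable. The classes were not matched for count level, so their shares are not strictly comparable. Beside PRMT6 the genes past 2-fold were SRSF8 (274 and 439 counts), TIGD1 (92 and 144), YY2 (39 and 66), FOXD2 (17 and 34) and SETSIP (11 and 25), several of them with few counts. FOXD2 and SETSIP were at 0.853 and 0.552 CPM with si-NC, so they passed the filter only through si-SRSF2, where they were higher. Nothing is concluded from the 2-fold counts of this class. Among all genes with a mean of 5 to 20 CPM, the range that holds PRMT6, 0.621% of 2575 were at least 2-fold higher.

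PRMT6, BTG2, PRMT2 and MAT2A had the highest log2 ratios of the 9 members and 57 other pathway genes tested, at 1.07, 1.06, 0.62 and 0.62. MAT2A makes the methyl donor, whereas MAT2B, AHCY, ADK, MTR and MTAP lay between 0.00 and 0.15. Of these, AHCY and ADK had intervals above 0. Whether MAT2A, PRMT2 and PRMT6 differ between transfections was not tested.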
